A study of Homo sapiens with 12 samples.

Results

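Genes are described here whose expression lay on one side of the scramble control on every array of LNCaP cells given a microRNA, whichever of 3 microRNAs it was. LNCaP is an established prostate cancer cell line with a luminal character. Per the labels, cells were transfected with miR-130a, with miR-203, with miR-205 or with a scramble microRNA, 3 arrays each, which the titles number as biological replicates. The labels give no dose, time after transfection or carrier, and no untransfected cells are among the 12 samples. Each gene was read from its brightest probe set (the one with the highest mean over the 12 arrays), and a gene was a member when all 9 microRNA arrays lay strictly above, or all strictly below, all 3 scramble arrays. Of 6821 genes bright enough to test, 523 were members (7.67%), 230 of them above scramble (3.37%) and 293 below it (4.30%). Without scramble replicate 1 the count was 923 (460 above and 463 below), and without scramble replicate 2 it was 451 below. Leaving out an array loosens the rule, so such counts rise mostly by the rule itself. Over all 11963 genes on the arrays the count was 532 (4.45%), so 2 higher and 7 lower members were too dim to test.

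MicroRNAs are short RNAs that, held in an Argonaute protein, pair through a seed near their 5′ end with messenger RNAs and lower their stability and translation. They are cut from hairpin precursors by the nuclease DICER1. Different seeds pair with different messengers, so the mature forms on record under the labels' names are shown first. RefSeq (GRCh38.p14) lists mature forms for the labels' miR-203, under the name miR-203a, and for miR-205, and the labels do not say which arm was used, so these forms may not be the RNAs transfected. Bases 2 to 8, the seed, are in capitals:
hsa-miR-203a-3p: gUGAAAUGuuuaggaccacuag
hsa-miR-205-5p: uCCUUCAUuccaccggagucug
The first lies at chr14:104117469-104117490 and the second at chr1:209432166-209432187, both on the plus strand, and their seeds UGAAAUG and CCUUCAU differ. The third microRNA is miR-130a.

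Most tested genes on a list of the amino acid response lay below scramble, 20 of 28, among 293 lower members in all. In that pathway, a lack of amino acids or another stress leads to phosphorylation of the initiation factor eIF2, translation of the transcription factor ATF4 then increases, and ATF4 with CEBPG and other partners binds C/EBP-ATF elements beside genes for amino acid transport, amino acid synthesis and tRNA charging. Several of its targets, such as DDIT3, TRIB3 and CHAC1, act in cell death or feed back on the response.

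The deposited table holds log2 values on a shared scale, with array medians between 2.76 and 2.78. Pearson's r over the tested genes was 0.992 to 0.997 between arrays of 1 group and 0.964 to 0.986 between arrays of different groups. Of a short list of defining markers, all 8 luminal ones on the arrays were above the array's median on all 12 arrays, while the 3 basal, the 4 neuroendocrine and the 7 leukocyte and endothelial ones were above it on none. Of 8 fibroblast and smooth muscle markers, 5 were above it on none, COL1A1 was on all 12 and COL3A1 and VIM on some. Longer lists were less uniform: 1 of 11 luminal genes was dim on all 12 arrays, and 1 of 8 basal and 2 of 10 neuroendocrine genes were bright enough to test. One of the latter, the amine-forming decarboxylase DDC, read 8.73, 8.65 and 8.75 on scramble, lay below it on all 9 microRNA arrays and fell by 0.41 ± 0.07 log2 (adjusted p = 0.000650). The 3′ to 5′ difference of the ACTB probe sets, a sign of RNA quality, was 2.18 to 2.54 log2 on the 9 microRNA arrays and 2.30 to 2.66 on scramble, and that of GAPDH 0.60 to 0.80 and 0.56 to 0.90, so the groups overlapped in both. The number of arrays limits the precision of every value below.

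The pooled comparison asks which genes differ from scramble on average over the 3 microRNAs. It is the mean of the 3 microRNA group means minus the scramble mean in limma, a linear model with a moderated variance, adjusted by Benjamini-Hochberg over all tested genes with a threshold of 0.05. It called 1731 genes (25.4%), 778 higher (11.4%) and 953 lower (14.0%), and the median difference over all tested genes was -0.0054 log2. The called genes held 221 of the 230 higher and 279 of the 293 lower members, and the other 1231 were not on one side. Members use the same arrays as this comparison, so their values in it describe them and are no separate evidence. A fit of only 2 groups, 9 arrays against 3, which counts differences among microRNAs as spread, called 254 genes, 246 of them members. Without scramble replicate 3 the pooled comparison called 1152 genes (485 higher). The median pooled difference was 0.40 log2 for the higher members and -0.43 for the lower. The 3 comparisons with scramble share the same 3 control arrays, and these are the only controls: a shift of the scramble arrays and a shift that all 3 microRNA groups share cannot be told apart. In RNA from whole cultures, fewer cells of a kind and less RNA per cell cannot be told apart either.

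Large shared differences were few, and most were downward. With the shared shift taken as the smallest of a gene's 3 differences from scramble, 2 higher and 8 lower members had at least 1 log2, and 32 and 48 had at least 0.5. The 8 lower genes were NIBAN1, PCK2, TRIB3, CHAC1, DDIT3, DIO3, ASNS and GARS1. Of these, 6 are on the list of amino acid response genes and GARS1 is an aminoacyl-tRNA synthetase. The 2 higher genes were ANKRD46 and STAMBP.

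Of the 28 tested genes on the ATF4 amino acid response list, 24 fell in the pooled comparison, against 14.0% of all tested genes. On the list 0 rose and 4 did not pass. All 9 microRNA arrays lay below scramble for 20 of the 28 (71.4%), against 4.30% of all tested genes. The list's median difference was -0.86 log2, and -0.78, -0.71 and -0.90 for miR-130a, miR-203 and miR-205, against -0.0054 for all tested genes in the pool. The list was written with earlier results of these samples known and holds genes noted there, so its count is not independent evidence of its direction. Among the 20, NIBAN1 was dim on all 9 microRNA arrays, and its fall is given as a bound below. The pooled differences of the others ran from -0.59 to -1.79 log2. Another 9 measured probe sets in 6 of these genes were available, and 8 of them also lay below scramble on all 9 arrays. The exception was a probe set of SLC7A1, with a mean difference of -0.018 log2. Over all lower members, 50 of 132 other measured probe sets lay below scramble on all 9 arrays. Over all higher members, 42 of 140 lay above it.

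**Figure D1:**
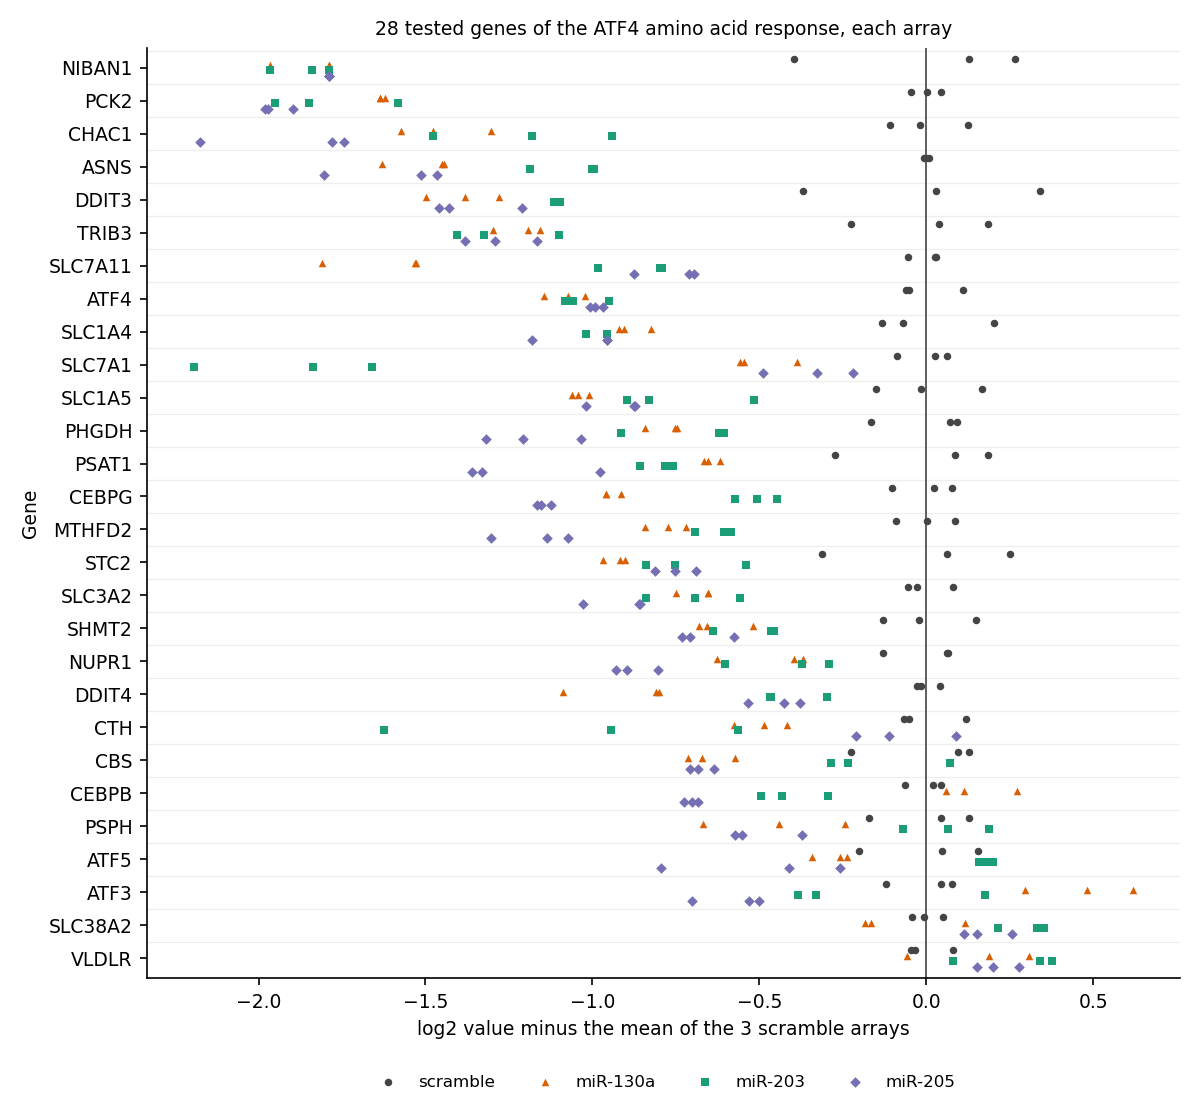
Each row is 1 of the 28 tested amino acid response genes and each point 1 array, as its log2 value minus the mean of the 3 scramble arrays (x axis); circles are scramble and the coloured marks the 3 microRNA groups. In 20 rows all 9 microRNA points lie left of the 3 scramble points, and ATF3, SLC38A2 and VLDLR at the bottom have points on both sides.

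ATF4, the transcription factor of the pathway, read 10.00, 9.99 and 10.16 log2 on the scramble arrays. It read 8.90, 8.97 and 9.02 with miR-130a, 8.99, 9.09 and 8.96 with miR-203 and 9.04, 9.05 and 9.08 with miR-205. The 9 values lay within a narrow band far under the lowest scramble value. Its messenger fell by 1.03 ± 0.06 (SE) log2, a 2.05-fold lower level (limma, adjusted p = 6.81e-08). The moderated F-test among the 3 microRNA groups, which uses no scramble array, gave ATF4 an adjusted p of 0.545, with differences from scramble of -1.08, -1.03 and -0.99 in the order above. CEBPG, a bZIP partner of ATF4, read 6.72, 6.59 and 6.78 on scramble and from 5.53 to 6.25 with a median of 5.74 on the 9 microRNA arrays, with no overlap. CEBPG fell by 0.87 ± 0.06 log2 (adjusted p = 2.41e-07) and lay lowest with miR-205 (5.55 ± 0.02, SD, n = 3) and least low with miR-203 (6.19 ± 0.06).

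Among the stress regulators downstream, NIBAN1, a stress-induced protein, read 4.59, 3.93 and 4.45 on scramble. It was above the array median on none of the 9 microRNA arrays, where its values ran from 2.36 to 2.54 with a median of 2.54. NIBAN1 was therefore at least 2.94-fold lower, a bound that counts each dim array at its median unless the gene read higher (adjusted p = 1.16e-07 in the fit). A further NIBAN1 probe set lay below scramble on all 9 arrays too, with a mean difference of -0.98 log2. TRIB3, a pseudokinase that restrains ATF4 activity, read 8.38, 8.12 and 8.53 on scramble and from 6.94 to 7.24 with a median of 7.05 on the 9. TRIB3 fell by 1.26 ± 0.09 log2 (adjusted p = 6.85e-07), with differences of -1.22, -1.28 and -1.28 in the 3 groups. DDIT3, which encodes the transcription factor CHOP, read 6.79, 6.39 and 7.10 on scramble and from 5.26 to 5.67 with a median of 5.48 on the 9, and fell by 1.29 ± 0.11 log2 (adjusted p = 5.57e-06). Neither gene's groups overlapped, although the scramble arrays of DDIT3 were spread more widely than its microRNA arrays.

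CHAC1, an enzyme that breaks down glutathione, read 5.05, 4.97 and 5.20 on scramble. It read 3.50, 3.60 and 3.77 with miR-130a, 4.13, 3.89 and 3.60 with miR-203 and 3.33, 3.29 and 2.90 with miR-205. All 9 lay well under scramble, and miR-205 was the lowest group. CHAC1 fell by 1.52 ± 0.12 log2 (adjusted p = 1.33e-06), and the F-test among the microRNAs gave 0.00304. DDIT4, an inhibitor of mTORC1, fell by 0.59 ± 0.07 log2, most with miR-130a (-0.90). The stress-induced regulator NUPR1 fell by 0.59 ± 0.08 and the secreted glycoprotein STC2 by 0.80 ± 0.10 log2. Adjusted p was 8.94e-05, 0.000213 and 9.71e-05 for DDIT4, NUPR1 and STC2, and none of the 3 overlapped scramble.

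Most listed enzymes of amino acid and one-carbon metabolism were below scramble on all 9 arrays. ASNS, which makes asparagine, read 9.78, 9.78 and 9.80 on the scramble arrays and 8.34, 8.15 and 8.34 with miR-130a. It read 8.79, 8.79 and 8.60 with miR-203 and 7.98, 8.27 and 8.32 with miR-205. The scramble arrays of ASNS agreed within a few hundredths of a log2 unit, and the miR-203 arrays lay nearest to them. ASNS fell by 1.39 ± 0.08 log2, a 2.62-fold lower level (adjusted p = 6.81e-08). PCK2, the mitochondrial phosphoenolpyruvate carboxykinase, read 8.49, 8.54 and 8.58 on scramble and from 6.56 to 6.96 with a median of 6.69 on the 9 microRNA arrays. It fell by 1.79 ± 0.07 log2 (3.46-fold, adjusted p = 1.57e-09), with a gap between the groups wider than for any of the other genes of this list.

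Of the 3 enzymes of serine synthesis, PHGDH read 8.62, 8.36 and 8.60 on scramble and from 7.21 to 7.92 with a median of 7.69 on the 9, and fell by 0.89 ± 0.09 log2 (adjusted p = 1.10e-05). PSAT1 fell by 0.89 ± 0.10 log2 (adjusted p = 3.43e-05), from 8.38, 8.83 and 8.74 on scramble to values from 7.29 to 8.03 with a median of 7.87. Both lay on one side, and both were lowest with miR-205. PSPH, the last enzyme of the route, was not on one side: its miR-203 difference was 0.06 log2, with -0.45 for miR-130a and -0.50 for miR-205, and its pooled difference was -0.30 ± 0.09 (adjusted p = 0.0360). PSPH did not pass without scramble replicate 2 (adjusted p = 0.171) or 3 (0.128), nor when miR-130a replicate 3, miR-203 replicate 2 or miR-205 replicate 1 or 2 was left out (0.0512 to 0.0599). The mitochondrial folate enzymes SHMT2 and MTHFD2 fell by 0.60 ± 0.07 and 0.86 ± 0.06 log2, without overlap (adjusted p = 7.38e-05 and 1.22e-06). The transsulfuration enzymes CTH (-0.54 ± 0.16 log2) and CBS (-0.49 ± 0.09) passed (adjusted p = 0.0248 and 0.00146) but overlapped scramble, CTH on the miR-205 arrays and CBS on the miR-203 arrays. CTH did not pass once scramble replicate 1 (adjusted p = 0.0973), replicate 2 (0.0652) or replicate 3 (0.0648) was left out.

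All but 1 of the tested amino acid carriers on the list were below scramble on all 9 arrays. SLC7A11, which imports cystine in exchange for glutamate, read 8.21, 8.13 and 8.21 on scramble. It read 6.65, 6.38 and 6.66 with miR-130a, 7.39, 7.39 and 7.20 with miR-203 and 7.48, 7.31 and 7.49 with miR-205. The miR-130a arrays stood lowest, and the F-test gave 9.14e-06. SLC7A11 fell by 1.08 ± 0.07 log2 (adjusted p = 5.11e-07), and 2 further probe sets of it were also below scramble on all 9. SLC3A2, the heavy chain that pairs with SLC7A11, fell by 0.77 ± 0.07 log2 (adjusted p = 6.28e-06), from 6.90, 6.93 and 7.04 on scramble to values from 5.93 to 6.40 with a median of 6.21.

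The neutral amino acid carriers SLC1A4 and SLC1A5 read 3.72, 4.06 and 3.79 and 6.77, 7.09 and 6.91 on scramble. On the 9 microRNA arrays SLC1A4 ran from 2.67 to 3.03 with a median of 2.90, and SLC1A5 from 5.86 to 6.41 with a median of 6.03. They fell by 0.97 ± 0.08 and 0.90 ± 0.09 log2 (adjusted p = 1.61e-06 and 1.01e-05), and the F-test among the microRNAs passed for neither (0.349 and 0.0790). SLC7A1, the carrier of cationic amino acids, differed most among the groups: 5.68, 6.21 and 6.03 with miR-203, 7.33, 7.31 and 7.48 with miR-130a and 7.38, 7.65 and 7.55 with miR-205, against 7.90, 7.78 and 7.94 on scramble. In the pool it fell by 0.91 ± 0.10 log2 (adjusted p = 2.98e-05), with -1.90 for miR-203 and -0.34 for miR-205. The exception, SLC38A2, had a pooled difference of 0.13 ± 0.07 and did not pass (adjusted p = 0.195).

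The remaining tested genes of the list were the transcription factors ATF3, ATF5 and CEBPB and the lipoprotein receptor VLDLR. CEBPB fell by 0.32 ± 0.06 log2 in the pool (adjusted p = 0.00261), but its miR-130a difference was 0.15. ATF3 was 0.47 from scramble with miR-130a, -0.18 with miR-203 and -0.58 with miR-205, and did not pass (adjusted p = 0.574). ATF5 and VLDLR had pooled differences of -0.20 ± 0.10 and 0.21 ± 0.08 log2 and did not pass (adjusted p = 0.173 and 0.0869). The genes of the amino acid response and synthetase lists that are neither among the 15 lower genes with the largest shared shift nor among the 4 leading members of their list, together with GDF15, GTPBP2, SLC7A8, IFRD1, MGAT4B, IFI27, GHR, SDC2 and FOLR1 below, were named after their values were seen.

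The promoters of these genes were searched for the core letters of the C/EBP-ATF element, TGATGNAA, and for its reverse complement TTNCATCA, from 250 bases before to 50 after each start site in RefSeq (GRCh38.p14). It was found in 3.62% of 35116 promoters and in 144 of 5737 tested genes with a promoter in the table (2.51%). Among members it was found in 16 of 258 lower genes (6.2%) and in 4 of 189 higher genes (2.12%). Of the 16, 12 are on the amino acid response or synthetase list. The letters were found in 7 of 17 amino acid response genes below scramble (41.2%) and in 5 of 7 synthetase genes below scramble (71.4%). In each list they were also in 1 of 7 tested genes not on one side (14.3%). Both lists were chosen with earlier results of these data known, so these shares are no independent evidence. A match is a match of letters and no evidence of binding. For 6 of the 12 amino acid response and synthetase genes with a match, chosen because the match lies wholly before the start site and to show enzymes, a carrier and a regulator, the match is in capitals, on the strand of the gene:
ASNS: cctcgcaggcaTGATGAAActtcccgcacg
CEBPG: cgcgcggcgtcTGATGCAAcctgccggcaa
CHAC1: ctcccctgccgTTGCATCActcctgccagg
SLC1A5: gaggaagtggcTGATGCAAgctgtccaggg
GARS1: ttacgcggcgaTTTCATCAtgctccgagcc
AARS1: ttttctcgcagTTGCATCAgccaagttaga
The ASNS window lies at chr7:97872458-97872487, with its match starting 68 bases before the start site. The CEBPG window lies at chr19:33374060-33374089 (42 bases before), that of CHAC1 at chr15:40953251-40953280 (209 bases) and that of SLC1A5 at chr19:46784893-46784922 (97 bases). The GARS1 window lies at chr7:30594834-30594863 (33 bases) and that of AARS1 at chr16:70289675-70289704 (187 bases). CEBPG and SLC1A5 share the 8 letters TGATGCAA, ASNS has TGATGAAA, and CHAC1 and AARS1 carry TTGCATCA, the reverse complement of the first.

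Aminoacyl-tRNA synthetases, which charge tRNAs with amino acids, were also below scramble, by less. Of 17 tested genes on that list, 11 fell, against 14.0% of all tested genes, 0 rose and 6 did not pass. Of the 17, 8 lay below scramble on all 9 arrays (47.1% against 4.30%). The list's median was -0.25 log2, and its single-microRNA medians were -0.30 for miR-130a, -0.19 for miR-203 and -0.28 for miR-205. In a limma fit of 2 groups, 9 arrays against 3, 3 of the 17 passed. The list includes AIMP1, a scaffold of the multisynthetase complex. The 8 falls ran from -0.22 to -1.24 log2.

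GARS1, the glycyl-tRNA synthetase, read 10.36, 10.15 and 10.34 on scramble. It read 9.25, 9.27 and 9.31 with miR-130a, 9.04, 8.96 and 8.67 with miR-203 and 8.91, 9.01 and 8.99 with miR-205. No array overlapped, and GARS1 fell by 1.24 ± 0.08 log2 (2.36-fold, adjusted p = 1.73e-07). SARS1, for serine, fell by 0.76 ± 0.06 log2, from 8.76, 8.67 and 8.75 on scramble to values from 7.76 to 8.30 with a median of 7.89 (adjusted p = 1.84e-06). CARS1, for cysteine, fell by 0.67 ± 0.07 log2 (adjusted p = 3.35e-05). AARS1, for alanine, fell by 0.69 ± 0.08 log2 (adjusted p = 3.17e-05), and its miR-203 arrays (7.85, 7.94 and 7.58) stood far under its miR-205 arrays (8.78, 8.89 and 8.72).

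The other synthetases on one side were EPRS1 (-0.38 ± 0.07), VARS1 (-0.28 ± 0.07), IARS1 (-0.22 ± 0.05) and NARS1 (-0.22 ± 0.06 log2), for glutamate and proline, valine, isoleucine and asparagine. Their adjusted p was 0.00140, 0.00810, 0.00606 and 0.0121. YARS1 (-0.42 ± 0.07), TARS1 (-0.25 ± 0.07) and WARS1 (-0.32 ± 0.08 log2) passed without lying on one side (adjusted p = 0.000774, 0.0210 and 0.0122). VARS1 did not pass when its probe set of largest variance or the mean of its probe sets was used. TARS1 did not pass without scramble replicate 2 (adjusted p = 0.0859) or 3 (0.0851), nor WARS1 without scramble replicate 1 (0.0712) or 3 (0.0664). WARS1, the tryptophan enzyme, which interferon also induces, was 0.55 from scramble with miR-130a and -0.94 with miR-205. HARS1 was 0.54 with miR-130a and -0.63 with miR-203, and its pooled difference was near 0. FARSA, KARS1, LARS1, RARS1, AIMP1 and HARS1 were the 6 that did not pass.

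**Figure D2:**
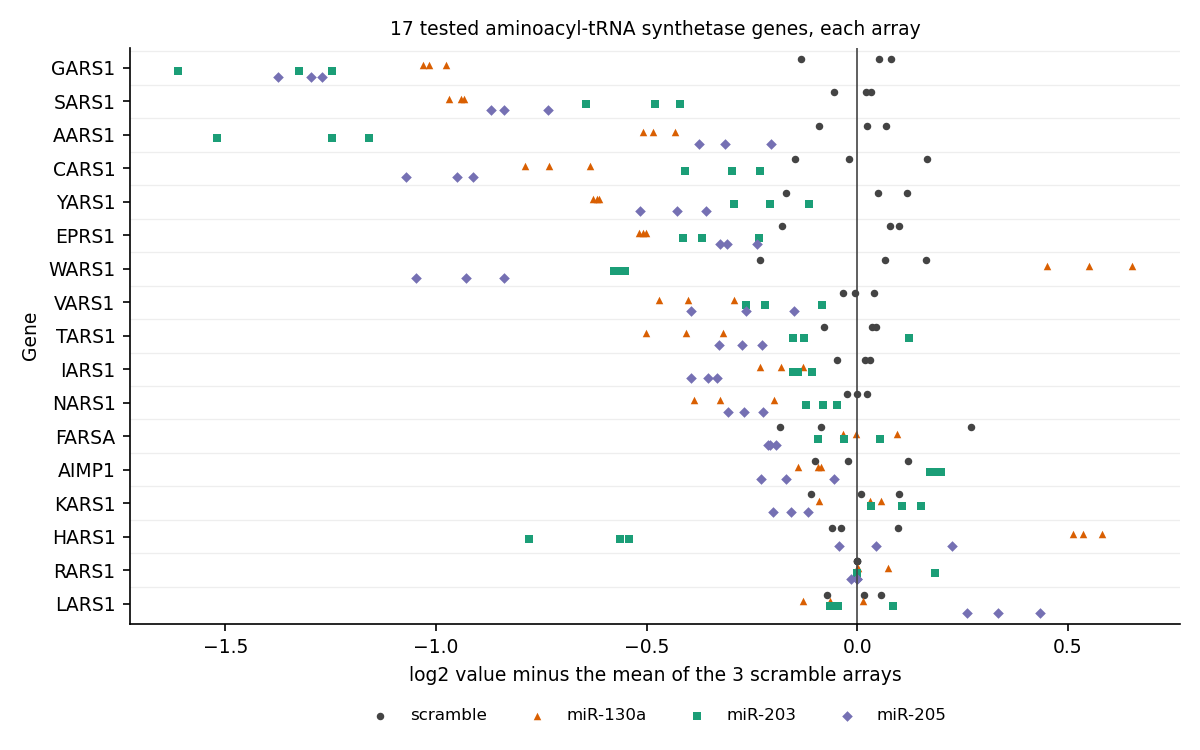
Each row is 1 of the 17 tested genes of the synthetase list and each point 1 array, as its log2 value minus the scramble mean (x axis); circles are scramble and the coloured marks the microRNA groups. GARS1, at the top, lies about 1 log2 or more below scramble on every microRNA array, while WARS1 and HARS1 have groups on both sides.

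Of 28 tested chaperones of the endoplasmic reticulum and genes of the unfolded protein response, 15 fell, against 14.0% of all tested genes, 0 rose and 13 did not pass. Of the 28, 3 lay below scramble on all 9 arrays (10.7% against 4.30%). The list's median was -0.22 log2 in the pool, -0.10 for miR-130a, -0.39 for miR-203 and -0.082 for miR-205. DNAJC10, a reductase of that compartment, fell by 0.85 ± 0.10 log2 (adjusted p = 6.79e-05), most with miR-130a (-1.30) and least with miR-205 (-0.35). HERPUD1, a part of the degradation machinery, fell by 0.51 ± 0.05 (adjusted p = 2.09e-05). P4HB, a protein disulfide isomerase, fell by 0.27 ± 0.06 log2 (adjusted p = 0.00540).

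Lower members outside these lists included other stress and nutrient genes. GDF15, a secreted stress cytokine, read 11.01, 11.21 and 11.31 on scramble and from 9.67 to 10.65 with a median of 10.19 on the 9, and fell by 1.05 ± 0.09 log2 (adjusted p = 2.44e-06). GTPBP2, a GTPase linked to the rescue of stalled ribosomes, fell by 0.97 ± 0.06 log2 (adjusted p = 3.18e-07). EIF4EBP1, a repressor of cap-dependent translation, read 8.09, 8.10 and 8.10 on scramble and 6.33, 6.67 and 6.51 with miR-205, its lowest group. EIF4EBP1 fell by 1.01 ± 0.07 log2 in the pool (adjusted p = 5.31e-07). SLC7A8, an amino acid carrier that pairs with SLC3A2, fell by 0.85 ± 0.11 log2 (adjusted p = 0.000167), most with miR-203 (-1.33). IFRD1 fell by 0.51 ± 0.12 (adjusted p = 0.00788), and its promoter also holds the TGATGNAA letters. Without scramble replicate 2 IFRD1 did not pass (adjusted p = 0.0520).

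DIO3, a deiodinase that inactivates thyroid hormone, read 4.86, 4.18 and 4.33 on scramble and from 3.24 to 3.49 with a median of 3.30 on the 9. It fell by 1.12 ± 0.11 log2 (adjusted p = 1.36e-05), with the 9 microRNA arrays closer together than the 3 scramble arrays. NEBL, an actin-binding protein, fell by 0.86 ± 0.12, CLIC4, an intracellular chloride channel protein, by 0.79 ± 0.08, and SLC9D1 by 0.88 ± 0.15 log2 (adjusted p = 0.000178, 2.60e-05 and 0.00101). MGAT4B, a glycosyltransferase that branches N-glycans, fell by 0.78 ± 0.11 log2 (adjusted p = 0.000300). SQSTM1, an autophagy receptor, fell by 0.67 ± 0.07 log2, from 9.82, 9.93 and 10.10 to values from 9.03 to 9.62 with a median of 9.30 (adjusted p = 3.38e-05). VEGFA, a secreted growth factor for blood vessels, read 7.45, 7.56 and 7.50 on scramble and from 6.89 to 7.10 with a median of 6.96 on the 9, and fell by 0.53 ± 0.06 log2 (adjusted p = 3.43e-05). Of 3 other VEGFA probe sets, 1 also lay below scramble on all 9 arrays.

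Of the 230 higher members 26 were on a gene list, and of the 293 lower members 44. ANKRD46, whose shared shift was the largest of the higher members, read 4.01, 3.82 and 3.80 on scramble. It read 5.68, 5.42 and 5.39 with miR-130a, 5.05, 5.28 and 5.36 with miR-203 and 5.96, 5.65 and 5.90 with miR-205. All 9 were over 1 log2 above the highest scramble array. ANKRD46 rose by 1.65 ± 0.09 log2, 3.13-fold (adjusted p = 6.81e-08). STAMBP, a deubiquitinase of endosomes, read 4.54, 4.31 and 4.22 on scramble and from 5.36 to 5.82 with a median of 5.47 on the 9, and rose by 1.20 ± 0.07 log2 (adjusted p = 1.00e-07). IST1, which works with the ESCRT machinery on the same membranes, rose by 0.90 ± 0.06 log2, from between 5.94 and 6.15 on scramble (adjusted p = 3.43e-07).

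CITED2, a transcriptional regulator that binds the coactivators CBP and p300, read between 5.97 and 6.03 on the 3 scramble arrays. It read 7.42, 7.34 and 7.31 with miR-130a and 7.26, 7.26 and 7.36 with miR-203, and 6.95 ± 0.07 (mean ± SD, n = 3) with miR-205, the lowest of the 3 groups and still well above scramble. CITED2 rose by 1.20 ± 0.06 log2 (2.30-fold, adjusted p = 6.12e-09), and a further probe set lay above scramble on all 9 arrays. SLC10A3, of the bile acid transporter family, rose by 1.07 ± 0.14 log2, with scramble arrays spread over 3.71, 3.38 and 2.84 (adjusted p = 0.000184). PUDP, a pseudouridine phosphatase, rose by 1.31 ± 0.11 log2 in the pool (adjusted p = 4.86e-06), most with miR-203 (1.85) and least with miR-205 (0.81).

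Receptors, enzymes and transport proteins followed with smaller rises. LGR4, a receptor for R-spondins, rose by 0.80 ± 0.15 and GALNT2, which starts O-glycosylation, by 0.87 ± 0.06 log2 (adjusted p = 0.00221 and 3.92e-07). KDM4B, a histone demethylase, rose by 0.80 ± 0.07 and KPNA3, a nuclear import receptor, by 0.86 ± 0.07 log2 (adjusted p = 5.57e-06 and 1.60e-06). TIMM17B, of the mitochondrial import channel, rose by 0.82 ± 0.07, the ubiquitin ligase MARCHF6 by 0.98 ± 0.13 and the small GTPase RHOQ by 0.82 ± 0.08 log2 (adjusted p = 4.30e-06, 0.000206 and 2.24e-05). Among receptors chosen later, GHR, the growth hormone receptor, rose by 1.04 ± 0.11 log2, SDC2, a heparan sulfate proteoglycan, by 0.87 ± 0.11, and FOLR1, a folate receptor, by 0.74 ± 0.12 (adjusted p = 2.49e-05, 0.000119 and 0.000840).

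DICER1, which cuts microRNA precursors and is a described target of miR-130a, read 8.22, 7.79 and 8.12 on scramble. It read 8.96, 8.82 and 8.88 with miR-130a, 8.57, 8.55 and 8.62 with miR-203 and 8.95, 8.55 and 8.90 with miR-205. The groups did not overlap, although scramble replicate 1 lay within 0.33 log2 of the nearest microRNA array. DICER1 rose by 0.71 ± 0.10 log2 (1.64-fold, adjusted p = 0.000191), and the F-test among the microRNAs gave 0.0903. Its other 2 probe sets lay above scramble on all 9 arrays, by 0.71 and 0.59 log2 on average. Of 19 tested genes of the microRNA machinery, DICER1 alone was on one side (5.26% above, against 3.37% of all tested genes). In the pool 2 of the 19 rose and 3 fell, against 11.4% higher and 14.0% lower over all tested genes.

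**Figure D3:**
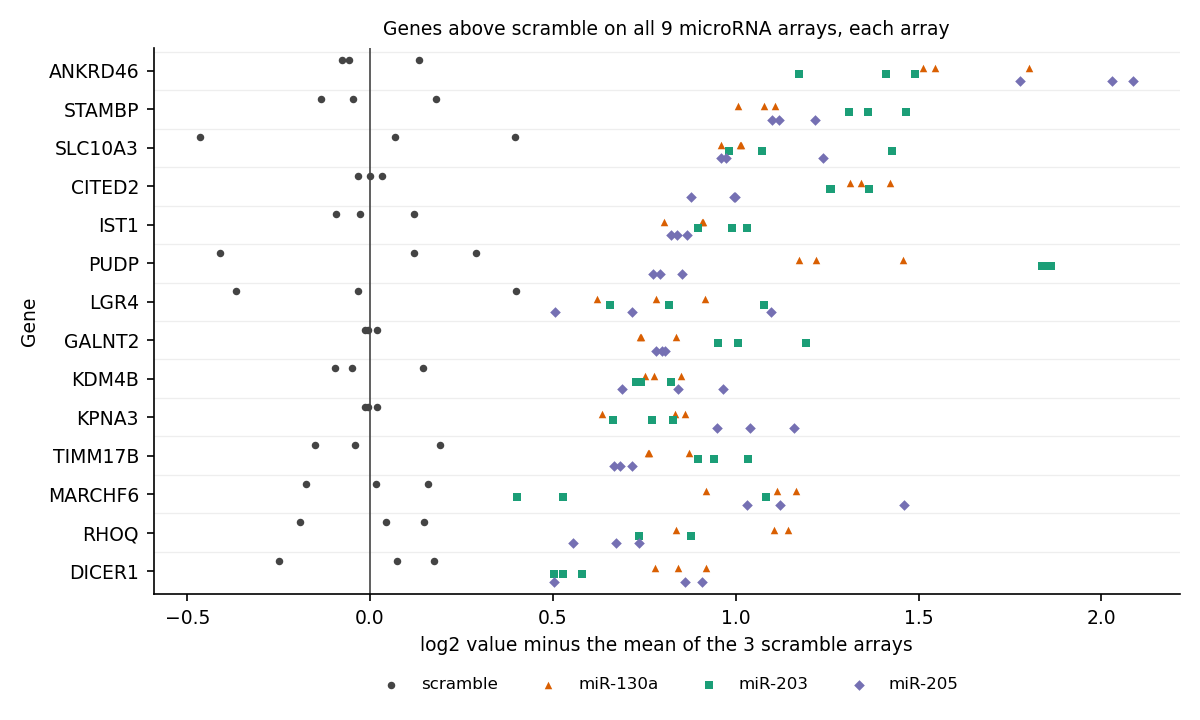
Each row is a gene above scramble on all 9 microRNA arrays and each point 1 array, as its log2 value minus the scramble mean (x axis); 13 genes with large shared shifts and DICER1 are drawn, with circles for scramble. ANKRD46, in the top row, has all 9 microRNA points more than 1 log2 above the scramble mean, and in MARCHF6 the 2 lowest miR-203 points come nearer to scramble.

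Interferon-induced genes rose in the pool, with medians far from scramble for miR-130a and miR-203 and close to it for miR-205. Of 27 tested genes 25 rose in the pool and 0 fell, against 11.4% higher and 14.0% lower over all tested genes. The medians were 2.19 log2 for miR-130a, 1.08 for miR-203 and 0.0034 for miR-205. Only 5 of the 27 lay above scramble on all 9 arrays (18.5% against 3.37%), and 1 of the 5, IFI27, did so by 0.0021 log2 between dim readings. In a limma fit of 2 groups, 9 arrays against 3, where differences among microRNAs count as spread, 0 of the 27 passed (13 had an unadjusted p below 0.05). All 27 differed among the microRNA groups by the F-test, against 55.2% of all tested genes. IFIT1, an antiviral RNA-binding protein, read 4.98, 4.74 and 4.87 on scramble. It read 11.54, 11.71 and 11.54 with miR-130a, 9.71, 9.55 and 9.76 with miR-203 and 5.61, 5.77 and 5.76 with miR-205. The miR-205 arrays lay just above scramble and the miR-130a arrays far above. IFIT1 rose by 4.13 ± 0.07 log2 in the pool (adjusted p = 5.19e-13), which averages differences of 6.73, 4.81 and 0.85.

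OASL, an antiviral protein related to the oligoadenylate synthetases, had differences of 6.23, 4.15 and 0.35 log2, and its nearest miR-205 array was 0.02 log2 above the highest scramble array. IFI6, an interferon-induced mitochondrial protein, had 2.87, 1.80 and 0.65, and IFITM1, which restricts viral entry, 2.98, 2.49 and 0.43. OASL and IFITM1 did not pass for miR-205 alone (adjusted p = 0.0618 and 0.195). IFI27 was above the array median on no scramble or miR-205 array, so no miR-205 difference is given. Over the 9 arrays it was at least 1.53-fold higher. TNFSF10, the death ligand TRAIL, was likewise dim on all scramble and miR-205 arrays and at least 1.79-fold higher over the 9, and its lowest miR-205 reading was 0.0048 log2 above scramble. It read 4.99, 5.45 and 5.14 with miR-130a and 2.64, 3.47 and 3.33 with miR-203. The adjusted p in the pool was 6.72e-11 for OASL, 6.12e-09 for IFI6, 1.15e-05 for IFITM1, 1.21e-05 for IFI27 and 6.05e-05 for TNFSF10. The interferon-stimulated response element, searched as GAAA, any 2 bases and GAAA on either strand, was in the promoters of 4 of 4 of these interferon genes with a promoter in the table. It was in 13 of 17 interferon-induced genes not on one side, and in 3.57% of all promoters. Neither this pattern nor TGATGNAA contains the other.

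**Figure D4:**
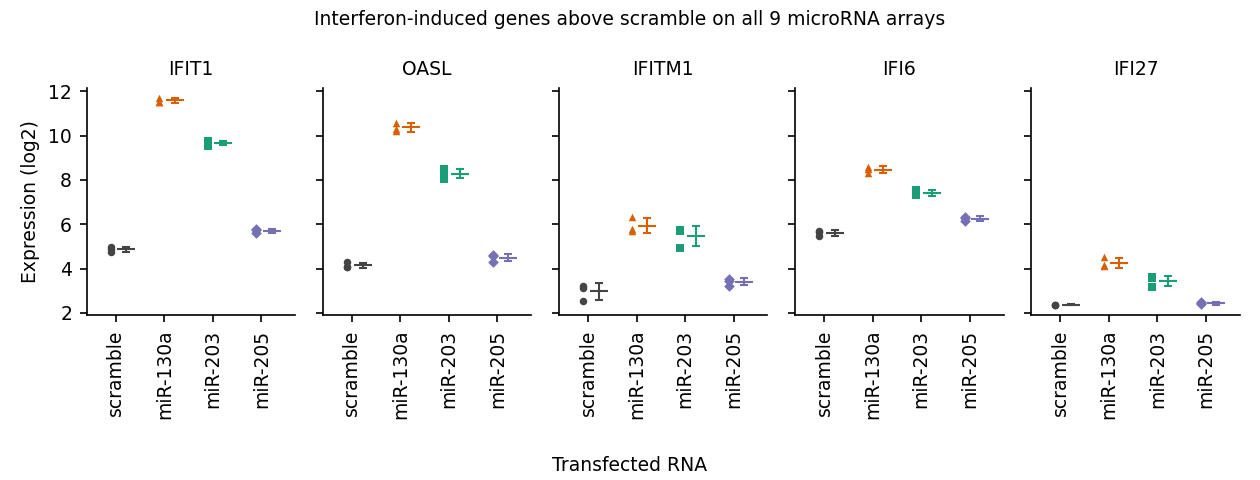
Panels show log2 expression (y axis) of the 5 interferon-induced genes above scramble on all 9 arrays, by transfected RNA (x axis); points are arrays and bars the mean ± SD of 3. The miR-205 arrays sit close above scramble in each panel, with IFIT1 differing by 0.85 log2, while miR-130a is highest in all 5.

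Of 15 tested immediate early and ERK-induced genes, 6 rose in the pool, against 11.4% of all tested genes, and 0 fell. Of the 15, 4 were above scramble on all 9 arrays (26.7% against 3.37%). These were the transcription factors MYC (0.43 ± 0.08 log2) and JUNB (0.36 ± 0.07), the phosphatase DUSP4 (0.33 ± 0.09) and the feedback inhibitor SPRY1 (0.47 ± 0.10). Their adjusted p was 0.00236, 0.00275, 0.0163 and 0.00565. DUSP4 did not pass without scramble replicate 2 (adjusted p = 0.0589) or replicate 3 (0.0712). Of 22 tested PI3K-AKT-mTOR genes, 4 rose, 3 fell and 15 did not pass, against 11.4% higher and 14.0% lower over all tested genes. On that list 2 genes lay above scramble on all 9 arrays (9.09% against 3.37%). EIF4EBP1, described above, was the 1 gene below it (4.55% against 4.30%). The 2 higher genes were the kinase MTOR (0.39 ± 0.08) and the regulatory subunit PIK3R3 (0.47 ± 0.05 log2, adjusted p = 0.00286 and 5.24e-05). Of 18 tested p53 targets, 8 rose, 2 fell and 8 did not pass, against the same shares of all tested genes. Of the 18, 2 lay above scramble on all 9 arrays (11.1% against 3.37%). These were CCNG1 (0.49 ± 0.05) and PLK2 (0.42 ± 0.09 log2, adjusted p = 2.52e-05 and 0.00382). CDKN1A, the cell cycle inhibitor, differed by 0.23 ± 0.09 and did not pass (adjusted p = 0.0900).

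Of 27 tested glycolysis and hypoxia genes, 7 rose, 1 fell and 19 did not pass, against 11.4% higher and 14.0% lower over all tested genes. The list's median pooled difference was 0.075 log2. On this list 3 genes lay above scramble on all 9 arrays (11.1% against 3.37%), and 1, VEGFA, lay below it (3.7% against 4.30%). The glycolytic enzymes HK2 and PGAM1 rose by 0.55 ± 0.10 and 0.29 ± 0.05 log2, and the mitophagy receptor BNIP3 by 0.35 ± 0.06 (adjusted p = 0.00130, 0.00102 and 0.000556). ACLY, which makes acetyl-CoA for lipids, rose by 0.29 ± 0.06, and CPT1A, which admits fatty acids to mitochondria, fell by 0.95 ± 0.06 log2 (adjusted p = 0.00204 and 3.43e-07). ACLY was the only one of 24 tested lipid synthesis genes on one side (4.17% above, against 3.37%). CPT1A was the only one of 19 tested fatty acid oxidation genes on one side (5.26% below, against 4.30%). ACLY did not pass with its probe set of largest variance or the mean of its probe sets. CPT1A stood far lower with miR-203 (-1.98) than with miR-205 (-0.36). These CPT1A values come from its brightest probe set. The other measured CPT1A probe set did not fall, with a pooled difference of 0.033 log2, and was not on one side. The histone gene H2BC21 rose by 1.22 ± 0.08 log2 (adjusted p = 1.73e-07), and the Mediator subunit MED1, a described miR-205 target, by 0.88 ± 0.11 (adjusted p = 0.000138). Another MED1 probe set, with a mean difference of 0.39 log2, was not on one side. Of 17 tested genes described as miR-205 targets, 2 rose, 5 fell and 10 did not pass, against 11.4% higher and 14.0% lower over all tested genes. MED1 alone of the 17 lay above scramble on all 9 arrays (5.88% against 3.37%) and VEGFA alone below it (5.88% against 4.30%). Of 21 tested epithelial junction genes, 4 rose, 4 fell and 13 did not pass, against 11.4% higher and 14.0% lower over all tested genes. Their median pooled difference was -0.024 log2. On this list 2 genes lay below scramble on all 9 arrays (9.52% against 4.30%). These were the epithelial splicing factor ESRP1 and the tight junction protein CLDN7, which fell by 0.61 ± 0.08 and 0.42 ± 0.07 log2 (adjusted p = 0.000167 and 0.00103).

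No gene lay on one side among 36 tested G1-S and DNA replication genes, 35 G2 and M phase genes, 22 androgen-induced genes, 25 cytosolic ribosomal proteins or 10 luminal prostate markers. Over all tested genes 7.67% did, which in the shorter of these lists comes to 1 or 2 genes. In the pool 18 of the G1-S genes fell and 1 rose, and 19 of the G2 and M phase genes fell and 0 rose, against 14.0% lower and 11.4% higher over all tested genes. The cell cycle medians lay apart by microRNA: the G2 and M phase medians were 0.45 log2 for miR-130a, -0.53 for miR-203 and -1.28 for miR-205. MKI67, a proliferation marker, was 0.20, -0.58 and -0.61 from scramble in that order. KLK3, which encodes prostate-specific antigen, was -0.28, -1.24 and 0.56. Both pooled falls passed (MKI67 -0.33 ± 0.09, adjusted p = 0.0140, and KLK3 -0.32 ± 0.06, 0.00294), though neither gene was on one side. Without scramble replicate 3 the MKI67 fall did not pass (adjusted p = 0.0991). Nor did it pass with its probe set of largest variance, without the filter on dim probe sets or in the fit of 2 groups. It also did not pass without the miR-203 arrays or without the miR-205 arrays. Over these settings its adjusted p in limma ran from 0.0540 to 0.512.

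**Figure D5:**
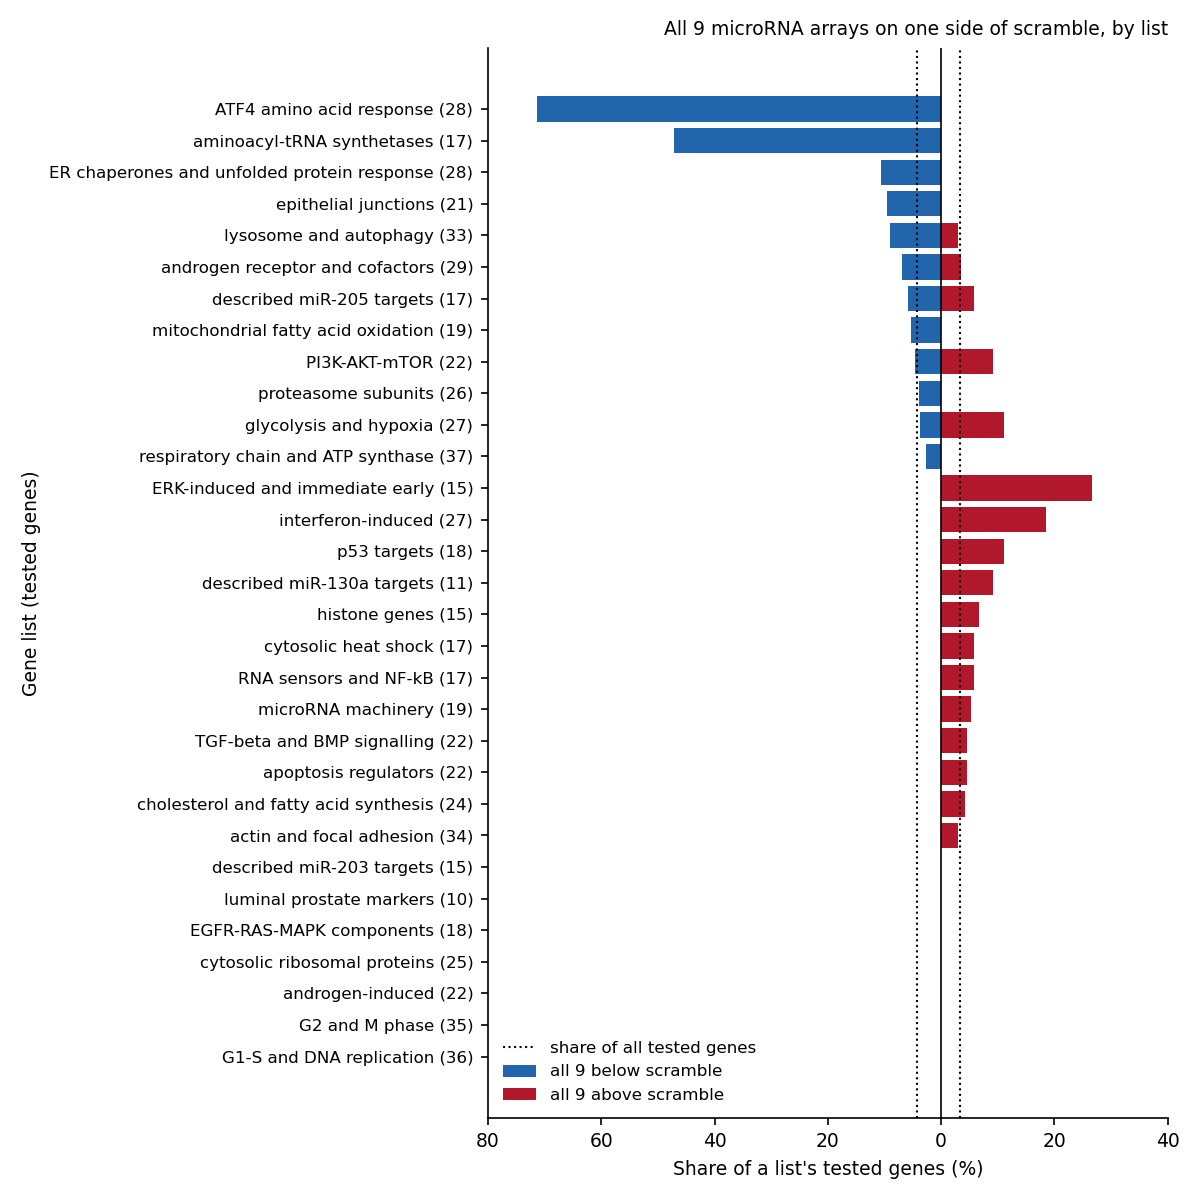
Bars give the percent of a list's tested genes (x axis, both directions from 0) with all 9 microRNA arrays below scramble (left, blue) or above it (right, red), for each list with 10 or more tested genes (their number in brackets); dotted lines mark 4.30% and 3.37%, the shares of all tested genes. The amino acid response list reaches 71.4% and the synthetases 47.1% on the lower side, and the cell cycle, androgen-induced and ribosomal lists have no bar.

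The levels of the 3 microRNA groups were also set against each other, without scramble. Of the members, 111 of 230 higher (48.3%) and 141 of 293 lower genes (48.1%) differed among the microRNAs by the F-test, against 55.2% of all tested genes. The higher members that differed least were MFAP3, FZD3 and TAF6, with pooled differences of 0.65, 0.47 and 0.24 log2. The lower ones were FHIP2B (-0.25), LIAS (-0.38), a lipoic acid synthase, and MYO15B, which was dim on all 9 microRNA arrays and at least 1.03-fold lower. An F-test that does not pass is no proof that the 3 levels are equal. By the p-value of the F-test, the members that differed most were IFIT1, OASL and IFI6 among the higher and CPT1A, RTN4 and SLC7A1 among the lower. RTN4, a protein that shapes the endoplasmic reticulum, read 9.42, 9.24 and 9.31 with miR-130a, 10.50, 10.39 and 10.40 with miR-203, 10.55, 10.41 and 10.47 with miR-205 and 10.58, 10.62 and 10.64 on scramble, so only miR-130a stood far from the control.

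Membership is strict, and its edge runs through small differences. Just inside were C1QBP, POLR2B and LRP6 among the higher genes, with pooled differences of 0.17, 0.29 and 0.27 log2, and CELSR1, POLDIP3 and MYO1C among the lower, with -0.23, -0.19 and -0.27. Just outside were ACBD4, AFF4 and ANKRD42-DT, and ACYP1, ADCY6 and BBIP1, each with a highest or lowest scramble value equal to the nearest microRNA value. Such ties held back 50 genes from the higher and 15 from the lower members.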

How the data were processed

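Total RNA of the 12 samples was measured on Affymetrix expression arrays. The authors deposited log2 values per probe set; R 2.9.0, RMA and limma are named, per the submitters' processing notes, without role or order, and the background method is not given in the sources used here. Of 22277 probe sets, 19070 had 1 gene symbol in the platform annotation (1043 several, 2164 none) and were used. Genes whose probe set exceeded the median of its array on 3 or more of the arrays were tested. limma 3.58.1 in R 4.3.3 fitted 4 group means over 12 arrays (8 residual and 4.84 prior degrees of freedom), and two-sided tests were adjusted by Benjamini-Hochberg. The procedure was tested on simulated data. Named genes are the 15 higher and 15 lower called members with the largest shared shift (14 of the higher are described), up to 4 members per list, the genes at the edge of the rule, those differing least or most among microRNAs, and 7 fixed genes, of which AGO2 was not analysed here and another is not reported here. Members, lists (35 with 946 genes, 813 on the arrays) and tests were chosen with earlier results of these data known. Alternatives covered the filter, probe set choice, scaling, array weights, equal values, a 2-group fit, a replicate block, and leaving out arrays or a microRNA. Where nothing beyond the labels says that replicates came from separate cultures, p-values measure the spread between these samples.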

Additional observations from a re-analysis of the deposited data

Results flagged for a closer look

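Of 123 tested genes named in the text, 78 differed among the 3 microRNA groups by the moderated F-test of limma at an adjusted p below 0.05, so the size of their difference from scramble depends on the microRNA. The distance between the highest and the lowest of the 3 differences from scramble was 5.89 for IFIT1, 5.88 for OASL, 2.74 for TNFSF10, 2.54 for IFITM1, 2.22 for IFI6, 1.83 for IFI27, 1.80 for KLK3 and 1.62 for CPT1A log2. On the same log2 scale the distance was 1.55 for SLC7A1, 1.54 for H2BC21, 1.49 for WARS1, 1.17 for HARS1, 1.16 for RTN4, 1.04 for ATF3, 1.04 for PUDP and 1.04 for GHR. It came to 1.01 for AARS1, 0.97 for CTH, 0.96 for EIF4EBP1, 0.95 for MED1, 0.95 for DNAJC10, 0.86 for SLC7A11, 0.85 for CEBPB and 0.82 for MKI67. Smaller distances followed, with 0.77 for SLC7A8, 0.72 for GDF15, 0.70 for CHAC1, 0.68 for SDC2, 0.67 for ATF5, 0.67 for CARS1, 0.64 for CEBPG and 0.62 for PIK3R3. Next were 0.61 for GTPBP2, 0.61 for ANKRD46, 0.59 for HK2, 0.58 for PSAT1, 0.56 for PSPH, 0.54 for MTHFD2, 0.54 for SPRY1 and 0.53 for ASNS. A distance was found of 0.53 for MARCHF6, 0.53 for CBS, 0.52 for DDC, 0.50 for CDKN1A, 0.49 for DDIT4, 0.49 for DUSP4, 0.47 for PHGDH and 0.45 for NUPR1. The order continued with 0.43 for SARS1, 0.43 for SQSTM1, 0.43 for MYC, 0.41 for YARS1, 0.40 for LARS1, 0.40 for CITED2, 0.39 for MTOR and 0.39 for GARS1. The values went on with 0.38 for BNIP3, 0.38 for SLC38A2, 0.37 for RHOQ, 0.36 for HERPUD1, 0.36 for TARS1, 0.34 for AIMP1, 0.32 for PCK2 and 0.32 for STAMBP. Below these stood 0.30 for ACLY, 0.30 for KPNA3, 0.28 for JUNB, 0.28 for GALNT2, 0.27 for TIMM17B, 0.26 for CCNG1, 0.26 for KARS1 and 0.25 for POLDIP3. Further down were 0.24 for MYO1C, 0.23 for P4HB, 0.23 for IARS1, 0.22 for NARS1, 0.21 for CELSR1 and 0.19 for PGAM1. The distance uses group means only, and scramble cancels in it. The lowest group was not above the array median on any array for TNFSF10 and IFI27 (miR-205) and CELSR1 (miR-130a), so for these 3 genes the distance is set against a dim reading.

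Probe sets with several gene symbols or none were outside the comparisons. Of 1292 such probe sets bright enough to measure, 83 had all 9 microRNA arrays on one side of scramble, 46 above (3.56%) and 37 below (2.86%).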

How the results depend on the processing

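Every count below has the main value beside it or in the report. The fit of 2 groups, 9 arrays against 3, which places differences among microRNAs in the residual spread, called 254 genes in place of 1731 (104 higher and 150 lower). There the synthetase list kept 3 lower calls and the interferon list 0 higher calls (13 with an unadjusted p below 0.05 in limma), while the amino acid response list had 19. A gene is on one side only if every array obeys the rule, so leaving arrays or a microRNA out loosens it. The counts on one side then rise mostly by the rule itself, and these rises do not measure how stable membership is. Leaving out 1 array gave 1152 to 1850 calls (485 to 819 higher and 667 to 1031 lower) and 538 to 923 genes on one side (237 to 460 above and 301 to 463 below). The counts moved most without a scramble array: 923 on one side without scramble replicate 1 (460 above, 463 below), 451 below without scramble replicate 2, and 1152 calls without scramble replicate 3 (485 higher). Over those fits the amino acid response list had 19 to 21 genes below scramble on all arrays, the synthetases 8 to 10 and the interferon list 5 to 6 above. With 2 microRNAs pooled, the genes on one side numbered 1171 without miR-130a (504 above, 667 below), 955 without miR-203 (436 and 519) and 1008 without miR-205 (488 and 520). Interferon genes then numbered 20 above scramble without miR-205, and 16 passed without miR-130a. Without genes that have equal values in a group, 3 interferon genes were above scramble and 15 of 16 tested passed. Signs reversed for BBIP1 with the probe set of largest variance (0.019 log2, adjusted p = 0.893), and without the miR-203 arrays for HARS1 (0.31 log2, adjusted p = 0.0118) and KLK3 (0.14 log2, adjusted p = 0.152). Among the named genes 53 lost their call in at least 1 alternative (142 of the values), most often in the fit of 2 groups. CEBPB did not pass without the miR-205 arrays, nor TNFSF10, RTN4 and TARS1 without the miR-130a arrays. The cause was not tested for any of these lost calls or reversed signs. Same-numbered arrays did not deviate together in every pair (r from -0.11 to 0.31). Between the microRNA groups, which the F-test compares, r was positive in every such pair, the lowest being 0.028 for miR-130a and miR-205. The highest values were those of miR-203 and miR-205 (0.105 to 0.313). With scramble r was -0.11 to 0.040, so the numbers do not pair the microRNA arrays with the controls. With the replicate number as a block, 780 genes were higher and 937 lower, and 1622 of the 1731 calls remained. The brightness of a probe set limits the values of dim genes: pooled differences of genes dim on all scramble or all 9 microRNA arrays are given as bounds.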
